A study of Homo sapiens with 4 samples.

Results

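The 38 genes described here are those of glycolysis and of the response to low oxygen. They were chosen by name, with earlier results of these data known, from a table of 19739 coding genes, in which all 38 were found. They comprise 2 oxygen-sensing transcription factors, 2 glucose transporters, 15 glycolytic enzymes, 2 regulatory kinases of glycolysis, 4 genes that set the fate of pyruvate, and 13 further genes known as targets or parts of the hypoxia response. RNA was sequenced from 2 human cell lines labelled HepG2 and Huh7, both names of liver tumour lines, though the HepG2 label is questioned below. Each line gave 1 library of cells given low-frequency ultrasound and RSL3@O2-ICG NBS for 24 h and 1 library of cells with no treatment. All 4 cultures were grown in DMEM with fetal bovine serum, and the treated cells received the carrier, its RSL3, oxygen and ICG, and the ultrasound at once, so the share of oxygen in any difference cannot be told apart from that of the rest. RSL3 is known as an inhibitor of the lipid peroxide-reducing enzyme GPX4 and an inducer of ferroptosis, an iron-dependent form of cell death. The labels do not spell out NBS.

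Glycolysis splits glucose to pyruvate, which is either reduced to lactate in the cytosol or oxidised in mitochondria. When oxygen is scarce, the hydroxylases that mark hypoxia-inducible factors (HIF) for destruction slow down, and the stabilised factors switch on glucose transporters, glycolytic enzymes, lactate dehydrogenase A, carbonic anhydrase 9, mitophagy receptors and collagen-modifying enzymes. HIF levels are set mainly at the protein, not at the transcript. Liver tumours are known for a shift of isoenzymes, with enzyme forms of the adult liver replaced by forms found in other tissues.

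Levels are given in FPKM, fragments per kilobase of transcript scaled to the size of the library, as the authors deposited them. FPKM is corrected for length, so levels can be set side by side between genes. The libraries held an inferred 23200000 fragments in treated and 25700000 in untreated cells labelled HepG2, and 22900000 in treated and 26400000 in untreated Huh7, and 11156 to 11715 coding genes reached 1 FPKM. Of 17 hepatocyte markers, none reached 1 FPKM in either library labelled HepG2, where they summed to 0.688 FPKM in the treated and 0.626 FPKM in the untreated library with ALB listed at 0, while all 17 did in both Huh7 libraries (2625 FPKM treated, 2834 FPKM untreated). HepG2 cells are known to secrete albumin, so these libraries go against their label, which may be wrong, and they are called "labelled HepG2" throughout. Of 8 blood markers, 2 reached 1 FPKM in each library labelled HepG2, with sums of 24.97 FPKM treated and 3.28 FPKM untreated, and 3 did in treated and 2 in untreated Huh7, with sums of 7.21 and 19.9 FPKM. Past 2-fold, CD68 was higher in treated cells of both lines and CD14 was lower in treated Huh7, so the Huh7 sums mix opposite changes. PTPRC and CD3E were listed at 0 in all 4 libraries, and of 8 endothelial markers TIE1 alone reached 1 FPKM, in the treated library labelled HepG2. Of 8 fibroblast markers, 4 reached 1 FPKM in each library labelled HepG2, with sums of 10.7 FPKM treated and 12.5 FPKM untreated. The part of such cells in the results was not tested. In bulk RNA, fewer cells that express a gene and less of its RNA per cell cannot be told apart.

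Each line was compared by log2((treated FPKM + 1)/(untreated FPKM + 1)), a scale that understates the change of genes at low FPKM. Genes that reached 1 FPKM in either library of a line were compared, and a gene was called at 2-fold or more. Between the libraries labelled HepG2, 2 of 38 genes were called higher, ENO2 and NDRG1, against 6.7% of 11843 coding genes, and 2 were called lower, LDHA and CA9, against 2.43%. In Huh7, 32 of the genes reached the minimum, 3 were called higher, ENO2, KDM3A and MXI1, against 3.88% of 11945 coding genes, and 3 were called lower, SLC2A1, LDHA and LOX, against 2.19%. The median log2 ratio of the genes was -0.07 in the libraries labelled HepG2 and -0.26 in Huh7, against 0.09 and 0.10 over all genes compared. Many of these genes are abundant, and over genes with a mean of 100 FPKM or more the median was -0.15 in the libraries labelled HepG2 (514 genes) and -0.16 in Huh7 (519 genes). Each group is 1 library, so no test was possible inside a line and these counts describe the libraries. At 1.5-fold the calls came to 6 higher (19.2% of all genes) and 4 lower (8.76%) in the libraries labelled HepG2, and to 5 higher (15.4%) and 8 lower (7.63%) in Huh7. The genes added were SLC2A3, BNIP3L, MXI1 and P4HA2 (higher) and PDK4 and PGAM1 (lower) in the libraries labelled HepG2, and ALDOC and PFKM (higher) and HK2, PGAM1, CA12, EGLN3 and ADM (lower) in Huh7.

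**Figure D1:**
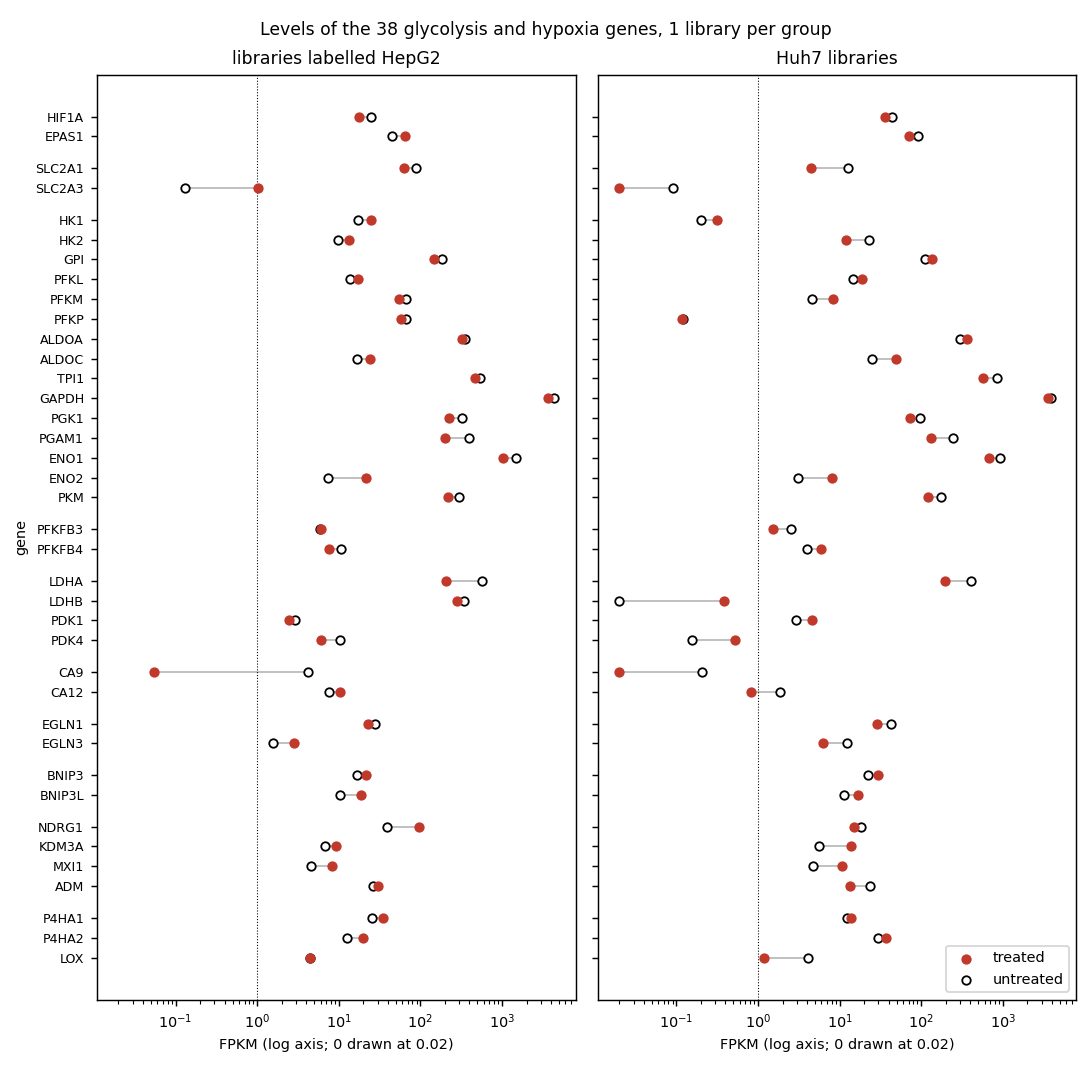
FPKM of the 38 genes on a log axis, treated (filled) and untreated (open), with 1 library per point, the libraries labelled HepG2 on the left and Huh7 on the right, and values of 0 drawn at 0.02. GAPDH lies farthest right in all 4 libraries, and the treated point of LDHA lies left of the untreated one in both lines, at 205 against 566 FPKM in the libraries labelled HepG2 and 198 against 406 FPKM in Huh7.

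Across the 32 genes compared in both lines, 11 had ratios below 0 in both (34.4%, against 23.3% of 10758 genes), 9 had ratios above 0 in both (28.1%, against 38.5%) and 12 had opposite signs (37.5%, against 38.2%). The 11 were HIF1A, SLC2A1, LOX, the prolyl hydroxylase EGLN1 and 7 enzymes from triose phosphate to lactate, TPI1, GAPDH, PGK1, PGAM1, ENO1, PKM and LDHA. The 9 were the phosphofructokinase PFKL, ALDOC, ENO2, BNIP3, BNIP3L, KDM3A, MXI1, P4HA1 and P4HA2, among them both mitophagy receptors and both collagen prolyl hydroxylases. With size factors the shares of all genes came to 29.7% below and 31.3% above 0 in both lines. The share above then lay close to that of the 38 genes, 9 of 32, while 12 of the 32 lay below, with PFKFB3 added. The genes known as HIF targets stood on both sides of 0. Of the 32, those past 2-fold in both lines were ENO2 alone among the higher genes, against 0.716% of genes, and LDHA alone among the lower ones, against 0.307%.

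Both lines were then tested in 1 limma fit with cell line as a block, which asks whether both moved alike and leaves 1 residual degree of freedom. No gene of 13030 passed an adjusted p of 0.05 (Benjamini-Hochberg), with 1534 genes (11.8%) and 12 of the 38 at an unadjusted p under 0.05. LDHA had the smallest adjusted p of the 38, with a log2 difference of -1.25 ± 0.19 (SE, limma adjusted p = 0.190). ENO2 differed by 1.29 ± 0.26 and PGAM1 by -0.92 ± 0.18 (SE, limma adjusted p = 0.212 each). The other 9 at an unadjusted p under 0.05 were SLC2A1, PGK1, ENO1, PKM and CA9, with negative differences, and ALDOC, BNIP3L, KDM3A and MXI1, with positive ones.

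**Figure D2:**
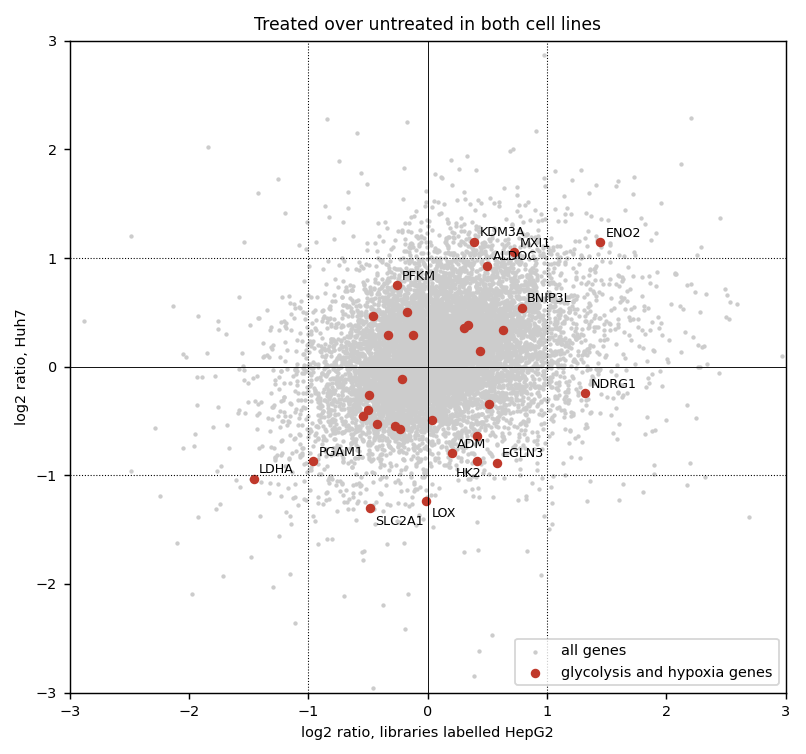
Log2 ratio of treated over untreated FPKM + 1 in Huh7 (vertical) against the libraries labelled HepG2 (horizontal) for the 32 genes compared in both lines (red) and all genes (grey), with 22 genes outside the axes and dotted lines at 2-fold. ENO2 lies past 2-fold at the upper right (1.45 and 1.14) and LDHA at the lower left (-1.46 and -1.03), while NDRG1 and SLC2A1 lie past it in 1 line each.

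HIF1A encodes the inducible oxygen-sensing subunit HIF-1α and EPAS1 its relative HIF-2α. HIF1A stood at 17.6 FPKM in treated and 25.1 FPKM in untreated cells labelled HepG2, and at 36.5 FPKM in treated and 44.0 FPKM in untreated Huh7 (log2 ratios -0.49 and -0.26). EPAS1 stood at 64.6 FPKM in treated and 44.9 FPKM in untreated cells labelled HepG2, and at 71.3 FPKM in treated and 91.0 FPKM in untreated Huh7 (0.52 and -0.35). EPAS1 was thus the more abundant of the pair in all 4 libraries, and neither was called in either line. Among 20 other genes of oxygen sensing and HIF control, of which 18 were compared, none was called higher in either line. Of all genes, 6.7% were called higher in the libraries labelled HepG2 and 3.88% in Huh7, and 2.43% and 2.19% lower. EGLN2, a HIF prolyl hydroxylase, was called lower in the libraries labelled HepG2, at 11.0 FPKM treated and 23.6 FPKM untreated, and had 40.3 FPKM in treated against 22.9 FPKM in untreated Huh7. ELOC, a subunit of the ubiquitin ligase that acts with VHL, was called lower in Huh7, at 6.94 FPKM treated and 23.6 FPKM untreated. EGLN2 shares 30.6% of its exons with the read-through gene RAB4B-EGLN2, and ELOC has 32 pseudogenes.

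The glucose transporter SLC2A1 was lower in treated cells of both lines and was called in Huh7. SLC2A1, the glucose transporter GLUT1 (chr1:42925375-42959176 of GRCh38, minus strand), had 62.3 FPKM in treated and 87.7 FPKM in untreated cells labelled HepG2, and 4.53 FPKM in treated and 12.7 FPKM in untreated Huh7. It was 2.47-fold lower in treated Huh7 (log2 ratio -1.31) and had a log2 ratio of -0.49 in the libraries labelled HepG2. SLC2A3, the high-affinity transporter GLUT3, had 1.01 FPKM in treated and 0.131 FPKM in untreated cells labelled HepG2, about 53 and 8 fragments, and stood below 0.1 FPKM in Huh7. SLC2A8, a largely intracellular glucose transporter outside the 38, was the most abundant in Huh7 of the 8 family members examined, at 75.4 FPKM treated and 77.3 FPKM untreated (log2 ratio -0.03), and had 13.4 FPKM in treated and 12.5 FPKM in untreated cells labelled HepG2 (0.08). The transporter of adult liver, SLC2A2, was listed at 0 in 3 libraries and had 0.0175 FPKM in untreated Huh7. The insulin-responsive transporter SLC2A4 was called higher in the libraries labelled HepG2, at 1.41 FPKM treated and 0.189 FPKM untreated.

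The promoters of the called genes with the largest ratios are printed with their values, since hypoxia response elements, the sites of HIF, have ACGTG or GCGTG at their core. The windows run from 250 bases before to 50 bases after a transcript start, are taken from RefSeq on GRCh38.p14, and are written 5′ to 3′ on the strand of the gene, with capitals for each ACGTG or GCGTG on either strand (CACGT or CACGC when read from the opposite strand). Of 35116 promoter windows of this length, 48.4% held at least 1 such match and 4.4% held 4 or more. A window was found for 35 of the 38 genes. Where a gene had more than 1 start, only the window nearest its annotated 5′ end was used. The SLC2A1 window, chr1:42958819-42959118 on the minus strand, holds 1 match, a GCGTG after the start.
SLC2A1: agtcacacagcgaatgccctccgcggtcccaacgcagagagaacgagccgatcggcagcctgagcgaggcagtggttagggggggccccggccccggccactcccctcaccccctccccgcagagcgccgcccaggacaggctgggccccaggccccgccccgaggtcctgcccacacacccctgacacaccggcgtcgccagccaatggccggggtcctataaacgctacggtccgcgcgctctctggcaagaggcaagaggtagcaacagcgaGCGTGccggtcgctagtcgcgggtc

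Hexokinases trap glucose in the cell, and of the 3 forms that reached 1 FPKM in any library, HK2 alone had ratios of opposite sign in the 2 lines. HK2, the inducible hexokinase of tumours, had 13.2 FPKM in treated and 9.72 FPKM in untreated cells labelled HepG2, and 12.0 FPKM in treated and 22.8 FPKM in untreated Huh7 (log2 ratios 0.41 and -0.87). HK1, the housekeeping form, had 24.6 FPKM in treated and 17.0 FPKM in untreated cells labelled HepG2 and stood at 0.313 FPKM in treated and 0.201 FPKM in untreated Huh7. HKDC1, a further hexokinase gene outside the 38, was the most abundant form in the libraries labelled HepG2, at 76.3 FPKM treated and 33.6 FPKM untreated, where it was called higher. In Huh7 HKDC1 had 1.17 FPKM treated and 0.892 FPKM untreated, and HK2 made up 89.0% of hexokinase FPKM in treated and 95.3% in untreated cells.

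The genes of the next 3 steps were all within 2-fold. The isomerase GPI had 145 FPKM in treated and 183 FPKM in untreated cells labelled HepG2, and 137 FPKM in treated and 112 FPKM in untreated Huh7. Of the phosphofructokinases, the rate-setting enzymes of glycolysis, the platelet form PFKP was the most abundant in the libraries labelled HepG2, at 57.6 FPKM treated and 65.9 FPKM untreated, and was near 0.12 FPKM in both Huh7 libraries, where the liver form PFKL led at 19.0 FPKM treated and 14.6 FPKM untreated. The muscle form PFKM had 54.8 FPKM in treated and 65.8 FPKM in untreated cells labelled HepG2, and 8.41 FPKM in treated and 4.59 FPKM in untreated Huh7 (log2 ratios -0.26 and 0.75). The muscle aldolase ALDOA had 320.0 FPKM in treated and 349.5 FPKM in untreated cells labelled HepG2, and 363 FPKM in treated and 296 FPKM in untreated Huh7. ALDOA shares 42.3% of its exons on the same strand with AC093512.2, so their reads may be split. The brain form ALDOC was higher in both lines without reaching 2-fold, at 24.1 FPKM treated and 16.7 FPKM untreated in cells labelled HepG2 and 49.0 FPKM treated and 25.3 FPKM untreated in Huh7 (0.50 and 0.93). ALDOC made up 6.997% of summed ALDOA and ALDOC in treated and 4.57% in untreated cells labelled HepG2, and 11.9% in treated and 7.87% in untreated Huh7.

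From triose phosphate onward, the most abundant gene of every step was lower in treated cells of both lines. Abundant genes in general leaned the same way. Over genes with a mean of 100 FPKM or more, the median log2 ratio was -0.15 in the libraries labelled HepG2 and -0.16 in Huh7. TPI1, the triose phosphate isomerase, had 463 FPKM in treated and 544 FPKM in untreated cells labelled HepG2, and 567 FPKM in treated and 847 FPKM in untreated Huh7 (log2 ratios -0.23 and -0.58). GAPDH, the dehydrogenase often used as a loading control, ranked 3 and 1 by FPKM in the treated and untreated libraries labelled HepG2 and 4 and 3 in Huh7. It had 3716 FPKM in treated and 4319.7 FPKM in untreated cells labelled HepG2, and 3623 FPKM in treated and 3919 FPKM in untreated Huh7 (-0.22 and -0.11). PGK1, the first ATP-making kinase of glycolysis, had 227 FPKM in treated and 322 FPKM in untreated cells labelled HepG2, and 74.0 FPKM in treated and 97.7 FPKM in untreated Huh7 (-0.50 and -0.40). The kinase that makes pyruvate, PKM, had similar ratios. PKM stood at 219 FPKM in treated and 294 FPKM in untreated cells labelled HepG2, and at 121 FPKM in treated and 175 FPKM in untreated Huh7 (-0.42 and -0.53). The liver pyruvate kinase PKLR was at or below 0.113 FPKM in all 4 libraries.

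PGAM1, the phosphoglycerate mutase (chr10:97426191-97433444), came close to 2-fold in both lines without reaching it. PGAM1 had 202 FPKM in treated and 395 FPKM in untreated cells labelled HepG2, and 133 FPKM in treated and 244 FPKM in untreated Huh7 (log2 ratios -0.96 and -0.87). It was called lower in the libraries labelled HepG2 when libraries were scaled by size factors. PGAM1 has 13 pseudogenes, and its near-copy PGAM4 had 6.67 FPKM in treated and 3.81 FPKM in untreated cells labelled HepG2 and 2.05 FPKM in treated and 1.66 FPKM in untreated Huh7, so how the authors' counting shared reads among them bears on the value. GAPDH, with 62 named pseudogenes, and BNIP3, with 39, carry the same limit.

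**Figure D3:**
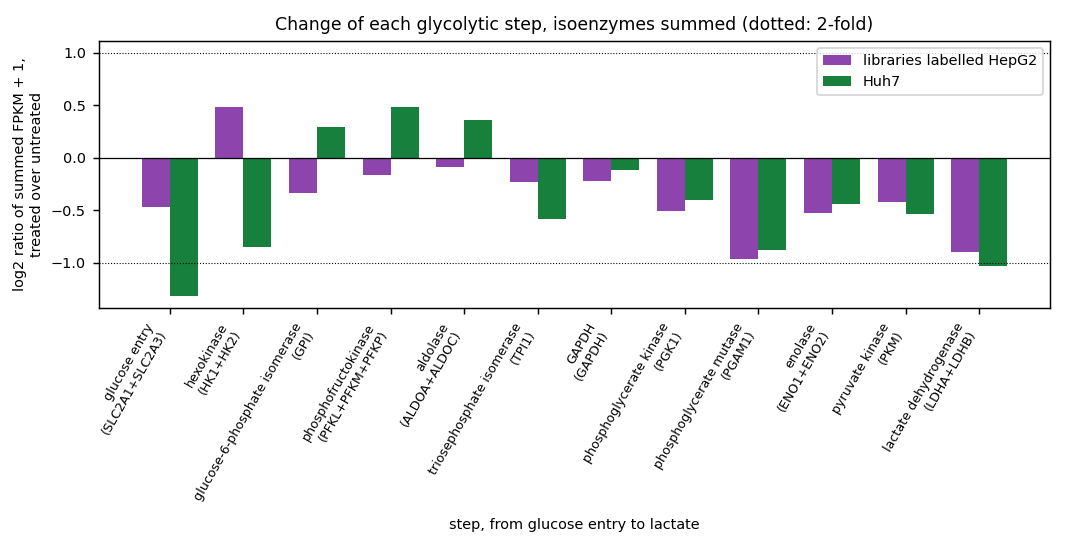
Log2 ratio of treated over untreated for each step from glucose entry to lactate, with the FPKM of the isoenzymes among the 38 genes summed and 1 added, for the libraries labelled HepG2 and for Huh7. From triosephosphate isomerase to lactate dehydrogenase every bar lies below 0, with lactate dehydrogenase at -0.89 and -1.03 and phosphoglycerate mutase at -0.96 and -0.87. The medians of genes with a mean of 100 FPKM or more were also below 0, at -0.15 and -0.16. Hexokinase, isomerase, phosphofructokinase and aldolase have opposite signs in the 2 lines.

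The 2 enolases stood on opposite sides of 0. ENO1, the ubiquitous form, had 1026 FPKM in treated and 1495 FPKM in untreated cells labelled HepG2, and 681 FPKM in treated and 932 FPKM in untreated Huh7 (log2 ratios -0.54 and -0.45). ENO2, the enolase first known from neurons (chr12:6913745-6923698), had 21.7 FPKM in treated and 7.32 FPKM in untreated cells labelled HepG2, and 8.09 FPKM in treated and 3.12 FPKM in untreated Huh7. ENO2 was 2.72-fold and 2.21-fold higher in the treated cells (1.45 and 1.14) and ranked 248 and 260 from the highest ratio among all genes compared. Its share of summed ENO1 and ENO2 was 2.07% in treated and 0.488% in untreated cells labelled HepG2, and 1.17% in treated and 0.333% in untreated Huh7, so total enolase FPKM followed ENO1. The muscle form ENO3, outside the 38, had 59.7 FPKM in treated and 69.8 FPKM in untreated cells labelled HepG2, and 50.7 FPKM in treated and 81.0 FPKM in untreated Huh7. The ENO2 window, chr12:6914330-6914629 on the plus strand, holds 1 match.
ENO2: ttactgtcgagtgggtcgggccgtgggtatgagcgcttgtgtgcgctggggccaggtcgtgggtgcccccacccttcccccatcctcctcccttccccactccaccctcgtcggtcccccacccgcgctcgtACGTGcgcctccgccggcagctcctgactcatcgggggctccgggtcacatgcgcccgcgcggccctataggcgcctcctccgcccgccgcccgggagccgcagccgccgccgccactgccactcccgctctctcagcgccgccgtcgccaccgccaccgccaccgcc

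Of the abundant glycolytic genes, LDHA had the lowest ratio in both lines. LDHA, the subunit that favours making lactate from pyruvate (chr11:18394560-18408425), had 205 FPKM in treated and 566 FPKM in untreated cells labelled HepG2, and 198 FPKM in treated and 406 FPKM in untreated Huh7. LDHA was 2.75-fold lower in the treated cells labelled HepG2 and 2.05-fold lower in treated Huh7 (log2 ratios -1.46 and -1.03), at ranks 73 and 239 from the lowest ratio among all genes compared. Among genes with a mean of 100 FPKM or more, 5.06% were called lower in the libraries labelled HepG2 and 2.7% in Huh7. LDHB, the subunit that favours turning lactate back to pyruvate, had 283 FPKM in treated and 342 FPKM in untreated cells labelled HepG2 (-0.27), and in Huh7 it had 0.381 FPKM in treated cells and was listed at 0 in untreated ones. LDHA therefore made up 42.1% of lactate dehydrogenase FPKM in treated and 62.3% in untreated cells labelled HepG2, and 99.8% in treated and 100% in untreated Huh7. LDHA has 6 named pseudogenes and LDHB shares 33.4% of its exons on the same strand with AC010197.2. The LDHA window, chr11:18394313-18394612 on the plus strand, holds 6 matches in 4 stretches, since each of its 2 CACGTG is read on both strands. CACGTG, the E-box bound by MYC and its partners, occurred in 7.26% of windows.
LDHA: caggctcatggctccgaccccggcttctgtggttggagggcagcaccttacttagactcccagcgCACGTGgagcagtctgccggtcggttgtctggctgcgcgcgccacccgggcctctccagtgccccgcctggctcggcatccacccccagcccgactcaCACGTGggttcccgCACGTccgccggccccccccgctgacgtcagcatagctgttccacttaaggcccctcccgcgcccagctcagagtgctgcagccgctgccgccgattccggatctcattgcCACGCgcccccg

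**Figure D4:**
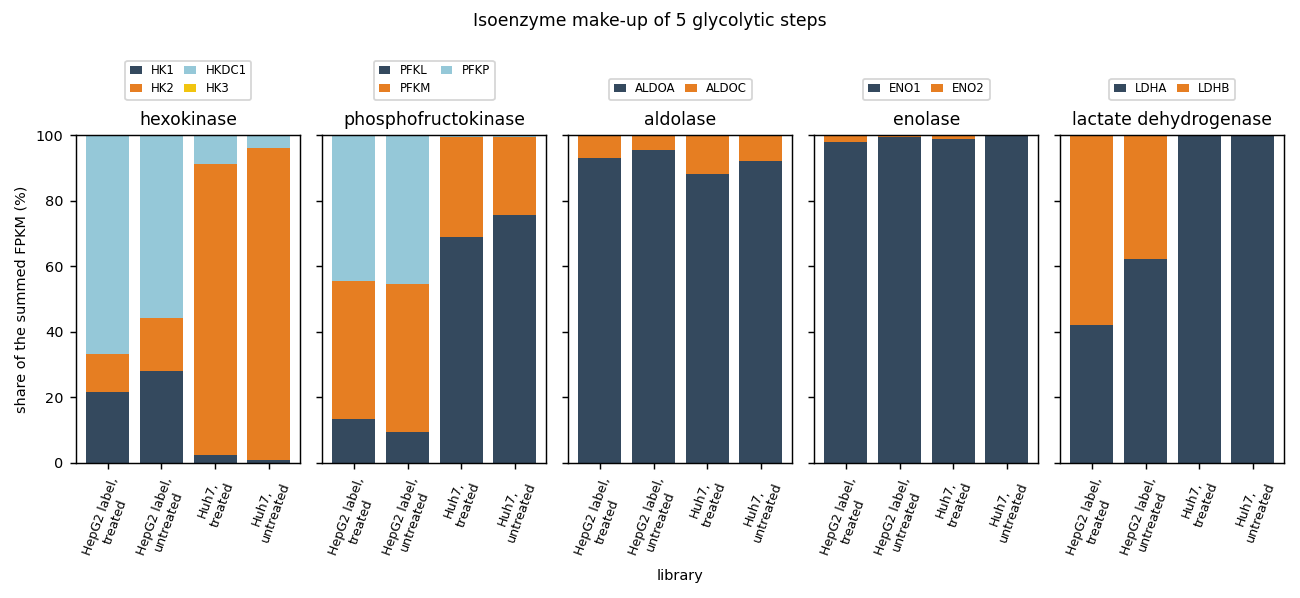
Share of each isoenzyme in the summed FPKM of 5 glycolytic steps in the 4 libraries, with hexokinase drawn with HKDC1 and HK3, which are outside the 38 genes. LDHB takes part of lactate dehydrogenase in the libraries labelled HepG2, where LDHA makes up 42.1% treated and 62.3% untreated, and almost none in Huh7.

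The kinases that steer glycolysis and pyruvate were not called in either line. PFKFB3 and PFKFB4 make the phosphofructokinase activator fructose-2,6-bisphosphate. PFKFB4 had 7.54 FPKM in treated and 10.8 FPKM in untreated cells labelled HepG2, and 5.88 FPKM in treated and 3.97 FPKM in untreated Huh7 (log2 ratios -0.46 and 0.47). PFKFB3 had 6.09 FPKM in treated and 5.90 FPKM in untreated cells labelled HepG2, and 1.52 FPKM in treated and 2.54 FPKM in untreated Huh7. PDK1 and PDK4 phosphorylate pyruvate dehydrogenase and so block the conversion of pyruvate to acetyl-CoA inside mitochondria. PDK1 had 2.48 FPKM in treated and 2.93 FPKM in untreated cells labelled HepG2, and 4.57 FPKM in treated and 2.94 FPKM in untreated Huh7. PDK4 had 6.01 FPKM in treated and 10.4 FPKM in untreated cells labelled HepG2 (-0.70), and 0.517 and 0.156 FPKM in Huh7, below the minimum. None of 28 further genes of pyruvate entry and oxidation was called in either line (medians -0.30 in the libraries labelled HepG2 and -0.08 in Huh7). Nor were those of lactate transport compared, 3 in the libraries labelled HepG2 and 5 in Huh7. Over all genes 6.7% were called higher and 2.43% lower in the libraries labelled HepG2, and 3.88% and 2.19% in Huh7, so few calls were due in lists of this size.

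Summed over the 15 glycolytic enzymes with LDHA and LDHB, transcripts came to 7019 FPKM in treated and 9004 FPKM in untreated cells labelled HepG2, 2.05% and 2.55% of all coding FPKM. In Huh7 the sum was 5995 FPKM in treated and 7100.2 FPKM in untreated cells, 1.59% and 1.92% of coding FPKM. GAPDH was the largest part of each sum. Without it the sums were 3303 FPKM treated and 4684 FPKM untreated in cells labelled HepG2, and 2372 FPKM treated and 3181 FPKM untreated in Huh7.

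Of the carbonic anhydrases, which buffer acid made by glycolysis, CA9 had the lowest ratio of all 38 genes. CA9, a tumour enzyme known as a close marker of HIF-1 activity (chr9:35673918-35681159), had 0.0540 FPKM in treated and 4.23 FPKM in untreated cells labelled HepG2, about 2 and 163 fragments. The ratio of treated to untreated FPKM was 0.0128, with a 95% interval for counting error of 0.00164 to 0.050, and its log2 ratio of -2.31 with 1 added was the ninth lowest among all genes compared. In Huh7 CA9 was listed at 0 in treated and had 0.204 FPKM in untreated cells, about 8 fragments, below the minimum. CA9 shares 38.5% of its exons with ARHGEF39 on the opposite strand, and the use of strand in counting is not stated. ARHGEF39 had 11.3 FPKM in treated and 7.56 FPKM in untreated cells labelled HepG2, and 10.8 FPKM in treated and 4.32 FPKM in untreated Huh7, the opposite direction to CA9. The CA9 window, chr9:35673678-35673977 on the plus strand, holds 1 match just before the start.
CA9: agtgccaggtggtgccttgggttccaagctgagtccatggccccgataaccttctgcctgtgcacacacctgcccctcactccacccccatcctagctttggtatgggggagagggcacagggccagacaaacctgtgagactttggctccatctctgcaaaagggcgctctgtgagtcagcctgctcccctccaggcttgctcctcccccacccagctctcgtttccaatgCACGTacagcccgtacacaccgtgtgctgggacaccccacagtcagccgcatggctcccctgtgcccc

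CA12, a membrane carbonic anhydrase, had 10.3 FPKM in treated and 7.49 FPKM in untreated cells labelled HepG2, and 0.829 FPKM in treated and 1.86 FPKM in untreated Huh7 (log2 ratios 0.41 and -0.64). Of 13 other carbonic anhydrases, CA2, CA3 and CA4 were called lower in Huh7, where 5 were compared (2.19% of all genes were). None was called in the libraries labelled HepG2, where 3 were compared. CA3, a muscle and liver form, had 9.20 FPKM in treated and 58.0 FPKM in untreated Huh7.

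The HIF hydroxylases EGLN1 and EGLN3, known as oxygen sensors and as HIF targets themselves, were within 2-fold. EGLN1 had 22.6 FPKM in treated and 27.6 FPKM in untreated cells labelled HepG2, and 28.6 FPKM in treated and 42.2 FPKM in untreated Huh7 (log2 ratios -0.28 and -0.54). EGLN3 had 2.81 FPKM in treated and 1.55 FPKM in untreated cells labelled HepG2, and 6.24 FPKM in treated and 12.4 FPKM in untreated Huh7 (0.58 and -0.88). EGLN3 thus had opposite signs in the 2 lines. The mitophagy receptors, which tag mitochondria for removal, were higher in treated cells of both lines without being called. BNIP3 had 21.5 FPKM in treated and 16.8 FPKM in untreated cells labelled HepG2, and 29.6 FPKM in treated and 22.5 FPKM in untreated Huh7. BNIP3L, also called NIX, had 18.7 FPKM in treated and 10.4 FPKM in untreated cells labelled HepG2, and 16.8 FPKM in treated and 11.2 FPKM in untreated Huh7 (0.79 and 0.54). BNIP3L shares 7.66% of its exons with PNMA2 on the opposite strand. PNMA2 was higher in the same direction, at 4.95 FPKM treated and 0.212 FPKM untreated in cells labelled HepG2, and 7.71 FPKM treated and 6.68 FPKM untreated in Huh7. The use of strand in counting is not stated. GAPDH (14.2%), ALDOC (10.1%), PFKM (8.58%) and P4HA2 (6.45%) also share exons with genes on the opposite strand.

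Among other HIF targets, 3 genes were called higher in 1 line each. NDRG1, a stress-induced gene also driven by other signals than HIF, had 97.4 FPKM in treated and 38.5 FPKM in untreated cells labelled HepG2, and 15.2 FPKM in treated and 18.2 FPKM in untreated Huh7. NDRG1 was thus 2.49-fold higher in treated cells labelled HepG2 (log2 ratio 1.32) and within 2-fold in Huh7 (-0.25). KDM3A, a histone demethylase (chr2:86440647-86492716), had 9.18 FPKM in treated and 6.76 FPKM in untreated cells labelled HepG2, and 13.7 FPKM in treated and 5.60 FPKM in untreated Huh7. It was 2.22-fold higher in treated Huh7 (1.15, against 0.39 in the libraries labelled HepG2). MXI1, an antagonist of MYC (chr10:110207605-110287365), had 8.31 FPKM in treated and 4.63 FPKM in untreated cells labelled HepG2, and 10.8 FPKM in treated and 4.70 FPKM in untreated Huh7. MXI1 was 2.08-fold higher in treated Huh7 (1.05, against 0.73) and fell short of 2-fold there when libraries were scaled by size factors. The KDM3A window holds 1 match and the MXI1 window none. KDM3A has 2 listed starts and MXI1 has 3, and the matches at the others are not given. ADM, the vasodilator peptide adrenomedullin, had 30.6 FPKM in treated and 26.5 FPKM in untreated cells labelled HepG2, and 13.3 FPKM in treated and 23.8 FPKM in untreated Huh7 (0.20 and -0.79).

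The collagen-modifying genes parted from each other in Huh7. P4HA1 and P4HA2, catalytic subunits of collagen prolyl hydroxylase, were higher in treated cells of both lines and within 2-fold. P4HA1 had 34.9 FPKM in treated and 25.4 FPKM in untreated cells labelled HepG2, and 13.8 FPKM in treated and 12.5 FPKM in untreated Huh7. P4HA2 had 19.9 FPKM in treated and 12.5 FPKM in untreated cells labelled HepG2, and 37.2 FPKM in treated and 29.3 FPKM in untreated Huh7. LOX, which cross-links collagen (chr5:122063195-122078360, minus strand), had 4.38 FPKM in treated and 4.43 FPKM in untreated cells labelled HepG2, and 1.17 FPKM in treated and 4.11 FPKM in untreated Huh7. LOX was 2.35-fold lower in treated Huh7 (log2 ratio -1.24) and level in the libraries labelled HepG2 (-0.01). Fibroblast markers also differed in Huh7, where 2 of 8 reached 1 FPKM in each library and the 8 summed to 10.5 FPKM in treated and 38.2 FPKM in untreated cells, mostly LUM, with DCN at 0 and 0.00553 FPKM. Their part in the LOX value was not tested. The LOX window, chr5:122078210-122078509 on the minus strand, holds 4 matches.
LOX: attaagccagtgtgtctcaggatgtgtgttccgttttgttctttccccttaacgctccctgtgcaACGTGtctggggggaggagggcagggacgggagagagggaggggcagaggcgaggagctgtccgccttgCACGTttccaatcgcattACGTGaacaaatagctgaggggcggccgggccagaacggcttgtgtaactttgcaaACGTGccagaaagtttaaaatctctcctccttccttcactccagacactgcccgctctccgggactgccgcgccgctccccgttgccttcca

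**Figure D5:**
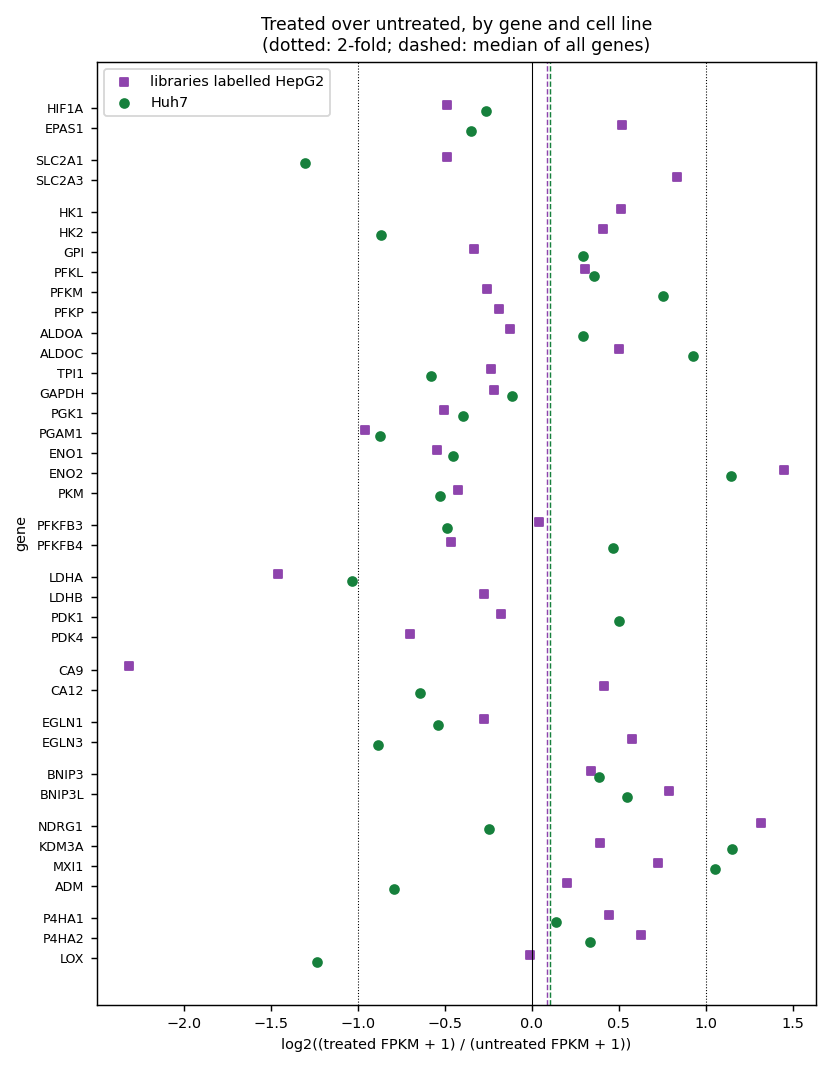
Log2 ratio of treated over untreated FPKM + 1 per gene for the libraries labelled HepG2 (squares) and Huh7 (circles), with genes below 1 FPKM in both libraries of a line left out, dotted lines at 2-fold and dashed lines at the medians of all genes (0.09 and 0.10). The squares of EGLN3, NDRG1 and HK2 lie right of 0 and their circles left of it, while both symbols lie left of 0 from TPI1 to ENO1 and for PKM and LDHA.

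The HIF targets outside the 38 were also found on both sides of 0. Of 47 further targets, 42 were compared in the libraries labelled HepG2, with 7 called higher (16.7%, against 6.7% of all genes), none lower (against 2.43%) and a median of 0.06. In Huh7 41 were compared, with 1 called higher (2.44%, against 3.88%), 3 lower (7.32%, against 2.19%) and a median of 0.20. This list was chosen with earlier results of these data known, so its shares do not show that targets were called more often than other genes. The blood vessel growth factor VEGFA had 36.3 FPKM in treated and 15.7 FPKM in untreated cells labelled HepG2, and 19.0 FPKM in treated and 21.0 FPKM in untreated Huh7. DDIT4, an inhibitor of mTOR also induced by other stresses, was the 1 target called higher in both lines, at 114 FPKM treated and 44.8 FPKM untreated in cells labelled HepG2 and 12.3 FPKM treated and 3.996 FPKM untreated in Huh7. DDIT4 shares 41.2% of its exons with DDIT4-AS1. IGFBP1, a liver binding protein of insulin-like growth factors, had 32.8 FPKM in treated and 4.84 FPKM in untreated cells labelled HepG2. PLIN2 (a lipid droplet coat protein), ZNF395, LONP1 (a mitochondrial protease) and ANGPTL4 were the other 4 called higher there, with log2 ratios of 1.73, 1.56, 1.63 and 1.07. In Huh7 the mitochondrial protein HIGD1A, with 17 pseudogenes, had 20.3 FPKM in treated and 113 FPKM in untreated cells, and IGFBP3 and CXCR4 were the other 2 called lower (-1.43 and -1.25). On the same strand, ZNF395 shares 34.9% of its exons with FBXO16 and HIGD1A 29.1% with AC099329.1.

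Other genes tied to glucose use were mostly within 2-fold, as were most coding genes. Of all genes, 6.7% were called higher and 2.43% lower in the libraries labelled HepG2, and 3.88% and 2.19% in Huh7. Among 20 upstream regulators of glycolysis, TXNIP and MLXIPL were called higher in both lines. TXNIP, an inhibitor of glucose uptake, had 18.4 FPKM in treated and 5.41 FPKM in untreated cells labelled HepG2, and 20.5 FPKM in treated and 5.56 FPKM in untreated Huh7. MLXIPL, the glucose-responsive factor ChREBP, had 18.5 FPKM in treated and 2.56 FPKM in untreated cells labelled HepG2, and 7.34 FPKM in treated and 2.23 FPKM in untreated Huh7. MYC was called higher in Huh7, at 18.1 FPKM treated and 7.51 FPKM untreated, and MXD4 lower in the libraries labelled HepG2, at 4.44 FPKM treated and 11.5 FPKM untreated. In gluconeogenesis, the mitochondrial carboxykinase PCK2 was called higher in the libraries labelled HepG2, at 53.2 FPKM treated and 11.5 FPKM untreated, and the pyruvate carboxylase PC lower in Huh7, at 25.8 FPKM treated and 53.4 FPKM untreated. PCK1 was near or at 0 in all 4 libraries. None of the 8 cytosolic shuttle genes compared was called in either line, and LOXL4, of the LOX family, was the 1 other collagen gene called, lower in Huh7 at 14.0 FPKM treated and 29.5 FPKM untreated.

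Without treatment the 2 lines differed in their isoenzymes. Between untreated Huh7 and untreated cells labelled HepG2, 4 of 37 genes compared were called higher in Huh7 (17.5% of 12446 coding genes were) and 12 lower (17.2%), with a median log2 ratio of -0.48 against -0.06 over all genes. The 4 higher were EPAS1 (2.003-fold), HK2 (2.22-fold), EGLN3 (5.23-fold) and P4HA2 (2.24-fold). Lowest were LDHB, listed at 0 in untreated Huh7 against 342 FPKM in untreated cells labelled HepG2, PFKP at 0.120 against 65.9 FPKM, HK1 at 0.201 against 17.0 FPKM, and PFKM at 4.59 against 65.8 FPKM. The other 8 lower were SLC2A1, PGK1, ENO2, PFKFB4, PDK4, CA9, CA12 and NDRG1, with log2 ratios between -3.30 and -1.02. At 1.5-fold, 7 were higher (26.2% of all genes) and 18 lower (29.2%). GAPDH, ALDOA and TPI1 were within 2-fold between the lines. EPAS1 fell short of 2-fold with libraries rescaled to the same sum, and ENO2 and NDRG1 did with size factors.

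The authors' deposited table of KEGG pathways lists how many of their differential genes fall in each pathway. For treated against untreated cells labelled HepG2 the authors' deposited table gives 12 of 66 genes of glycolysis and gluconeogenesis (p = 0.613), PGAM1, ENO2 and LDHA of the 38 among them, and 20 of 106 genes of HIF-1 signaling (p = 0.562), with ENO2. For Huh7 the authors' deposited table gives 9 of 66 (p = 0.617), with HK2, ENO2, LDHA and LDHB, and 15 of 106 (p = 0.571), with SLC2A1, HK2, ENO2 and EGLN3. The corrected p of these 4 entries is 1 in the authors' deposited table. Of the 38 genes, ENO2 and LDHA are in the glycolysis entry of both lines. How the authors chose those genes is not stated.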

How the data were processed

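RNA was sequenced in 4 libraries, 1 per group, from Trizol-extracted total RNA with an Illumina TruSeq RNA kit, per the labels' protocols, which state neither selection nor strand. The authors deposited FPKM per coding gene and per long noncoding transcript, per the file headers. Per the submitters' processing notes, Cuffdiff 2.1.1, StringTie 1.3.1, HISAT2, Bowtie2 2.2.8, GATK, SAMtools 0.1.18 and Picard 1.96 were used, without stated roles. No source used here gives the build: 99.93% of 19649 genes with a GENCODE 29 identifier overlap its GRCh38 position. The authors' deposited KEGG tables give p-values and corrected p-values per pathway, per the file headers.

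Computed here were ratios of FPKM + 1 per line (minimum 1 FPKM in either library, call at 2-fold), isoenzyme shares, sums, and a limma 3.58.1 fit (R 4.3.3, trended variance) of log2(FPKM + 1) paired by cell line. The limma fit was also run on simulated data in which each changed gene moved alike in both lines. That run does not check the fit where the lines differ. No count model was used, since FPKM are not counts. Depth was inferred from the FPKM step of 1 fragment in low genes. Only 51.1% to 53.2% of those values lay within 0.1 of a whole number, so fragment numbers are estimates, and intervals cover counting error only. The labels do not name separate cultures.

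The 38 genes, 10 other lists and 4 marker lists were chosen with earlier results of these data known. All 4 values are given for genes past 2-fold, HIF1A, EPAS1, the leading gene of each step and most others. Other lists name up to 6 genes past 2-fold by size. VEGFA, DDIT4, ANGPTL4, CXCR4, ENO3, PGAM4, PKLR, SLC2A2, SLC2A8 and PCK1 were added after their values were seen. Promoters are those of the 6 called genes with the largest ratio, except NDRG1. Alternatives were another pseudocount, minimum, scaling or fold, and limma without the trend or the cell line term.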

Additional observations from a re-analysis of the deposited data

Results flagged for a closer look

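Of the genes compared in both lines, 6 had ratios of opposite sign, with both ratios at 1.25-fold or more or 1 of them at 2-fold or more. The difference between lines was not tested for any of them, since each ratio rests on 1 library per group. The share of all coding genes that meet this rule was not counted. Opposite signs of any size were found in 37.5% of the glycolysis and hypoxia genes compared in both lines, against 38.2% of 10758 coding genes. The 6 genes are therefore not shown to differ between lines more often than other genes do. The log2 ratio in the libraries labelled HepG2 minus that in Huh7 was 1.56 for NDRG1 (1.32 and -0.25), the largest gap of the 6. It was 1.46 for EGLN3 (0.58 and -0.88), 1.28 for HK2 (0.41 and -0.87), 1.05 for CA12 (0.41 and -0.64) and 0.86 for EPAS1 (0.52 and -0.35). PFKFB4 was the 1 gene of the 6 with the higher ratio in Huh7, at -0.93 (-0.46 and 0.47).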

How the results depend on the processing

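No called ratio changed sign under the alternatives named here. Only rescaling and size factors can change the sign of a ratio. They shifted the medians of all genes by -0.10 to 0.10, so for called ratios this was close to fixed in advance. Of the counts that answer a comparison, 37 values under alternatives stayed within 1.5 times and 6 moved. With a minimum of 5 FPKM, 1 gene was called lower in the libraries labelled HepG2, since CA9 is below that minimum. At 1.5-fold, 6 genes were called higher and 4 lower in the libraries labelled HepG2, 5 higher and 8 lower in Huh7, and 7 higher in untreated Huh7 over untreated cells labelled HepG2. SLC2A3 (libraries labelled HepG2) and CA12 (Huh7, lower) were gained with a pseudocount of 0.1, and LOX was lost with a minimum of 5 FPKM.

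Size factors shifted the median of all genes in Huh7 by -0.10, giving 336 genes higher and 340 lower, against 464 and 261 as deposited. A pseudocount of 0.1 gave 1331 higher and 413 lower in the libraries labelled HepG2, against 794 and 288, and 970 and 422 in Huh7. A 1.5-fold call gave 2277 and 1038, and 1841 and 912. Under rescaling and size factors, the alternatives that can change a sign, the 9 genes above 0 in both lines stayed above 0. Of the 11 below 0, 10 stayed below. LOX was the exception, above 0 in the libraries labelled HepG2 after rescaling to the same sum and not compared at 5 FPKM. With size factors PFKFB3 was also below 0 in both lines.

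limma called none of the genes it tested among the 38 under 8 settings (34 tested with a minimum of 5 FPKM, 37 with size factors, 38 otherwise), and over all genes 1 with a minimum of 5 FPKM, 1 after rescaling and 3 with size factors. The adjusted p of LDHA ranged from 0.119 to 1.00 over the settings. With no replicate block, that is without the cell line term that pairs the libraries, limma called 0 of the 38 and 0 of 13030 genes, with 112 at an unadjusted p under 0.05. With 1 library per group, leaving out a replicate gives no value. Depth limits CA9 in treated cells, with about 2 fragments, and LDHB in Huh7, with about 6 fragments treated.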

Other observations

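MIR210HG is the host gene of miR-210, a microRNA known as a HIF target. In the deposited table of long noncoding transcripts, MIR210HG-201 had 0.315 FPKM in treated and 0.258 FPKM in untreated cells labelled HepG2, and 0.316 FPKM in treated and 0.453 FPKM in untreated Huh7. HIF1A-AS1 and HIF1A-AS2, antisense transcripts of HIF1A, were listed at 0 in all 4 libraries.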
